A study of Mus musculus with 12 samples.

Results

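Liver mRNA was compared between ZT6, the middle of the light phase, and ZT10, 2 hr before lights off (ZT0 is lights on). Each time has 2 of the 12 samples of the series, which cover the day in 4 hr steps from ZT2 to ZT22 in 2 independent series, each liver being removed once. All samples are wild-type C57BL/6 adults of 3 to 6 months, males per the study's methods, that were kept in 12 hr of light and 12 hr of darkness for at least 2 weeks. The labels name no mutation and no agent, and the sources do not say whether a sample is 1 animal or a pool. Levels are the mean coverage of a gene's exons by poly(A) RNA sequences in reads per base pair (rpbp), so that levels of different genes are already per length. Of 20069 genes in the table, 10198 reached more than 8 rpbp in at least 1 of the 12 samples and were tested.

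A gene was taken as a member where both values of one time exceeded both of the other by at least 1.5-fold, as the lowest value of the higher time plus 1 rpbp over the highest value of the lower time plus 1 rpbp. This rule selected 176 genes, of which 94 were higher at ZT10 (0.922% of the genes tested) and 82 were lower (0.804%). Of these, 10 entries share a locus with another entry among them. The counts describe the 4 samples and are not a test. As a test, limma was fitted to log2(rpbp + 1) of all 12 samples, and an adjusted p below 0.05 was called.

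Mice rest and mostly fast in the light and feed in the dark. In the hepatic clock, CLOCK and BMAL1 (the product of *Arntl*) bind E-boxes and drive *Per*, *Cry*, *Nr1d1* and *Dbp*, and the PER and CRY proteins then repress this drive. REV-ERBα, the product of *Nr1d1*, represses *Arntl* through sites that the ROR activators share with it. Blood corticosterone of nocturnal rodents climbs toward the onset of darkness, and hepatocytes carry the glucocorticoid receptor.

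The sequences below are RefSeq promoter windows (GRCm38.p6, 250 bases before to 50 after a start site, 5′ to 3′) of genes that carry the clock and hormone results, shown so that the E-box letters can be read beside the levels. Capitals mark CACGTG, the E-box searched, which reads the same on both strands.

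Nr1d1 (chr11:98775328-98775627, minus strand): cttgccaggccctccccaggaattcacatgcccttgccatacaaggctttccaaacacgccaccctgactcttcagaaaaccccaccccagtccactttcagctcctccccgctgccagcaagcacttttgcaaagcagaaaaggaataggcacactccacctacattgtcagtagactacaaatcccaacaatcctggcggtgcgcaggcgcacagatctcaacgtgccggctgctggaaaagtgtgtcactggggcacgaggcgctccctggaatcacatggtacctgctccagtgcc

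Cry1 (chr10:85185005-85185304, minus strand): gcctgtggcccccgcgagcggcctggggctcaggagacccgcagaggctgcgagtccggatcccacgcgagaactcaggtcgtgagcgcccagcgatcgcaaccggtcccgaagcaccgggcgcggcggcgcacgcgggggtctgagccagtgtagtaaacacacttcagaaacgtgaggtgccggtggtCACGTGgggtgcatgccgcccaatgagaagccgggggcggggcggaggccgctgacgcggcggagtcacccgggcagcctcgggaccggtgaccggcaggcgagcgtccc

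Fkbp5 (chr17:28486100-28486399, minus strand): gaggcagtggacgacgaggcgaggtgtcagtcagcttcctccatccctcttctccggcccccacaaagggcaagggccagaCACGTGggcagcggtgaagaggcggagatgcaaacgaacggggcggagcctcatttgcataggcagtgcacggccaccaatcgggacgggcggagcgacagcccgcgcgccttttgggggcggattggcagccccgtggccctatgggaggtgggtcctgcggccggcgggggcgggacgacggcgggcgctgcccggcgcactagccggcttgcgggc

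Il6ra (chr3:89913147-89913446, minus strand): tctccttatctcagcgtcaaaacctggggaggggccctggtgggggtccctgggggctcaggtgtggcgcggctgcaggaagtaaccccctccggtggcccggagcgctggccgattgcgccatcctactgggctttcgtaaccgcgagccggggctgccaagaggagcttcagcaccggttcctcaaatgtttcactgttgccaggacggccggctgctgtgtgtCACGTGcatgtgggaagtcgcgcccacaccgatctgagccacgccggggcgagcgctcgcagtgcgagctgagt

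Per1 (chr11:69098699-69098998, plus strand): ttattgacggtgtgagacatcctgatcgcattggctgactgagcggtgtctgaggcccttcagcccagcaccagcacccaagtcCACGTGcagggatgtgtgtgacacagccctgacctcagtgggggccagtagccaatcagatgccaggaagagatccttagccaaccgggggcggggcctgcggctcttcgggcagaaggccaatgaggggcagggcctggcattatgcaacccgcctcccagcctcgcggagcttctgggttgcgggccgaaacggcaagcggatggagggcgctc

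Of the 6878 tested genes with such a window, 846 (12.3%) held CACGTG. It was found in 10 of the 60 members higher at ZT10 that have a window (16.7%) and in 8 of the 46 lower ones (17.4%). Of genes that limma called, 5 of the 12 higher ones with a window held it (41.7%), *Hsph1* and *Lonrf3* beside *Cry1*, *Fkbp5* and *Il6ra*. So did 2 of the 10 lower ones (20%), *Phf17* (*Jade1*) and *Tnpo2*. Among the lower members, *Irs2*, not shown, held it 44 bases before the start. The windows shown were chosen and are not a sample of the members. *Cry1* held it 60 bases before the start, *Il6ra* 24 bases before, *Fkbp5* 169 bases before and this window of *Per1* 166 bases before, whereas the *Nr1d1* window has no match. The 3 windows of *Tsc22d3* and the second window of *Per1*, not shown, have none either. A glucocorticoid response element, searched after the data were seen, matched 0 of the 60 higher members and 27 of the 6878 genes (0.393%). A match is a string of letters, and no binding was measured here.

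The step from ZT6 to ZT10 was small for most genes. The median log2 difference of the 10198 genes was −0.023, and the genes between the 5th and 95th percentiles lay between −0.47 and 0.41. Limma called 17 genes higher at ZT10 (0.167%) and 16 lower (0.157%), 33 in all (0.324%). An unadjusted p below 0.05 was found for 1212 genes, 477 of them higher and 735 lower. The counts of gene lists below are to be read beside these. Of the 33 called genes, 30 also met the 1.5-fold rule, the exceptions being *Tuba4a*, *Tnpo2* and *Fgf1*. Conversely, 146 members were not called. The plot of ZT10 against ZT6 levels shows most genes on the diagonal.

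**Figure D1:**
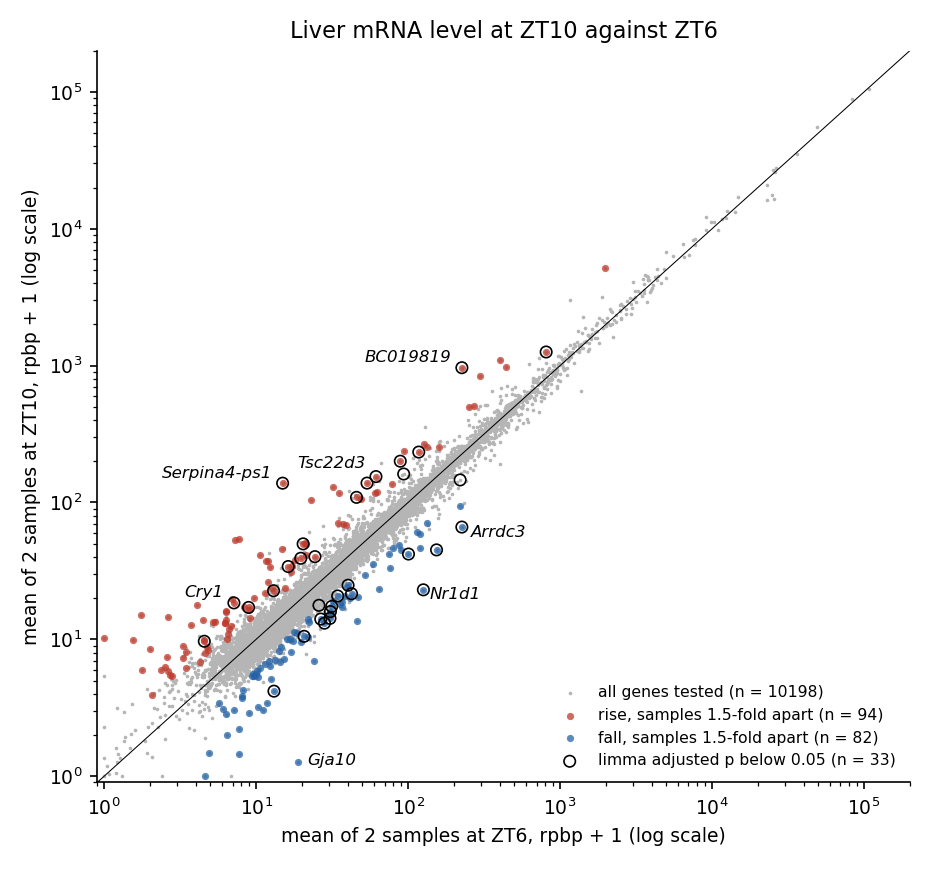
Mean level at ZT10 (vertical) against ZT6 (horizontal), in rpbp + 1 on log axes, for the 10198 genes tested (n = 2 samples a time). Red and blue points are the 94 members higher and the 82 lower at ZT10, and rings mark the 33 genes limma called; *Nr1d1* lies far below the diagonal and *Serpina4-ps1* and *BC019819* far above it.

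The calls rest on few samples, and the ZT10 samples were less alike than the ZT6 samples. Without the series 1 sample of ZT6, or without that of ZT10, limma called 0 genes (740 and 915 at an unadjusted p below 0.05). It called 5 higher and 3 lower without the series 2 sample of ZT6, and 20 and 18 without that of ZT10. Across the genes tested, r of log2 levels was 0.987 between the ZT6 samples and 0.976 between the ZT10 samples, against 0.969 to 0.981 between samples of different times. The series 2 sample of ZT10 was thus closer to both ZT6 samples than to the other ZT10 sample. At ZT10, 286 genes were at least 2-fold apart between the 2 samples, against 121 at ZT6. When the samples were scaled by the median of ratios instead, which moved the median log2 difference to 0.017, 30 genes were called higher and 14 lower.

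The 2 series shared part of the step. In series 1, 558 genes were at least 1.5-fold higher at ZT10, in series 2 there were 293, and 137 were in both, which is 24.6% of the first list and 46.8% of the second, where the lists hold 5.47% and 2.87% of all genes tested. Of the 558, 43 were lower by that factor in series 2. For lower genes the lists held 604 and 396, with 113 in both (18.7% and 28.5%, the lists holding 5.92% and 3.88% of all genes tested) and 41 of the 604 higher in series 2. Over all genes tested, r between the log2 differences of the 2 series was 0.211, across genes that are not independent replicates.

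Among clock genes, *Nr1d1* and *Cry1* moved in opposite directions. *Nr1d1* (REV-ERBα, chr11:98629246-98636647, mm9) was at 142 and 108 rpbp at ZT6 and at 20.6 and 23.4 rpbp at ZT10. Its values at the 2 times lay far apart, and its mean fell 5.68-fold (log2 difference −2.44, SE 0.223, adjusted p = 0.00498). *Cry1*, a repressor of CLOCK:BMAL1 (chr10:84594447-84647799), was at 6.24 and 6.04 rpbp at ZT6 and at 19.6 and 15.3 rpbp at ZT10, a 2.84-fold rise of the mean (log2 difference 1.36, SE 0.173, adjusted p = 0.0179). The ZT10 level was still below its levels in the night, 35.2 and 39.2 rpbp at ZT14 and 49.4 and 51.0 rpbp at ZT18.

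The other repressors did not pass the test. *Per1*, also a target of the glucocorticoid receptor, was at 5.92 and 4.68 rpbp at ZT6 and 11.9 and 13.8 rpbp at ZT10, and its groups did not overlap (log2 difference 1.14, adjusted p = 0.171). *Per2* was at 17.7 and 19.2 and then 27.4 and 25.4 rpbp, likewise with no overlap (log2 difference 0.49, adjusted p = 0.171). *Per3* (20.6 and 23.5, then 21.8 and 16.5 rpbp) overlapped, and *Cry2* (36.8 and 34.9, then 31.0 and 30.1 rpbp) was lower at ZT10 in both samples, with adjusted p of 0.756 and 0.565. *Nr1d2*, which encodes the related receptor REV-ERBβ, was at 95.6 and 103 and then 78.8 and 83.1 rpbp (log2 difference −0.29, adjusted p = 0.554), a far smaller difference than that of *Nr1d1*. The log2 differences of *Bhlhb2* (*Bhlhe40*) and *Gm129* (*Ciart*) were −0.23 and 0.19 (adjusted p = 0.855 and 0.911).

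Of 5 activators of the clock tested, limma called 0 (2 higher and 0 lower at an unadjusted p below 0.05). *Arntl* was near its lowest, at 1.12 and 2.08 rpbp and then 2.84 and 4.44 rpbp (log2 difference 0.84, adjusted p = 0.217), while *Clock* was at 17.8 and 16.2 and then 17.4 and 17.4 rpbp and *Rora* at 20.0 and 20.2 and then 16.4 and 18.3 rpbp. *Npas2*, a partner of BMAL1, was below 1 rpbp in all 4 samples.

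The PAR bZIP factors, which bind D-boxes, were not called. *Dbp* was at 193 and 241 rpbp at ZT6 and 100.1 and 87.8 rpbp at ZT10, below by 2.31-fold in the mean with both samples lower (log2 difference −1.19, adjusted p = 0.12). It was called with a pseudocount of 4 rpbp. *Dbp* shares 689 bases with *Sphk2* on the other strand, whose own level was 32.2 and 29.9 and then 27.0 and 28.5 rpbp. *Tef* and *Hlf* had log2 differences of −0.15 and −0.22 (adjusted p = 0.696 and 0.419). *Nfil3*, the repressor that competes for D-boxes, was at 20.6 and 17.1 and then 25.4 and 29.4 rpbp (log2 difference 0.52, adjusted p = 0.171).

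**Figure D2:**
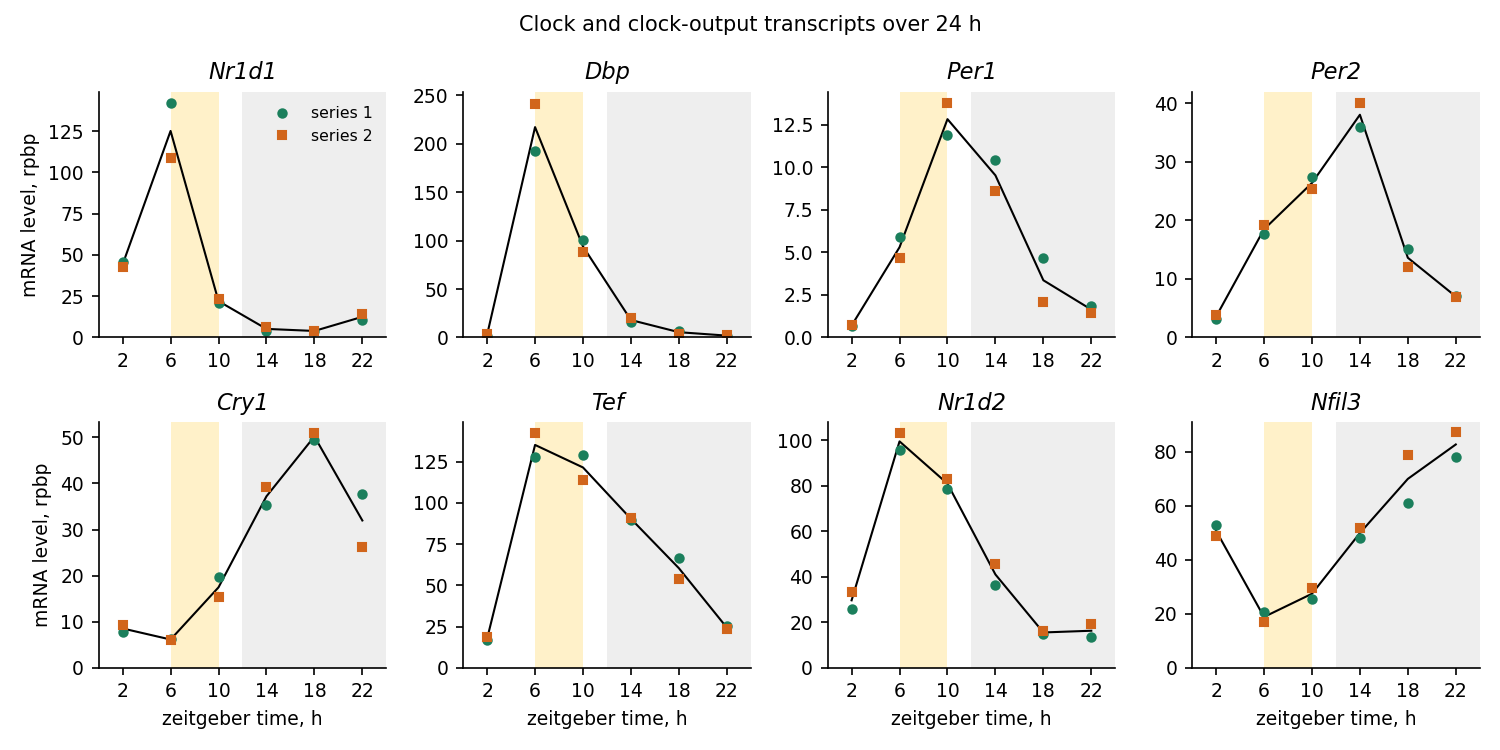
Level in rpbp (vertical) of 8 clock and clock-output genes against zeitgeber time in hr (horizontal), with series 1 as circles, series 2 as squares and the mean of the 2 as a line; the ZT6 to ZT10 step is shaded yellow and the dark phase grey. *Nr1d1* and *Dbp* had their highest mean at ZT6 and were lower at ZT10, *Per1* had its highest mean at ZT10, and *Cry1* its highest at ZT18.

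Outputs that CLOCK:BMAL1 is known to drive directly lay mostly higher at ZT10. Of 11 such genes tested, 10 had both ZT10 values above both ZT6 values, where 17.9% of all genes tested did so, and the median log2 difference was 0.74 against −0.023 over all genes tested, 1.03 in series 1 and 0.70 in series 2. At an unadjusted p below 0.05, 8 were higher and 0 lower, against 477 and 735 of the 10198 genes tested. Limma called 0 of the 11, and 4 met the 1.5-fold rule as rises, where 0.922% of all genes tested did. The study named several of the 11 outputs as rhythmic in these samples, so that their shared direction is not independent evidence. *Lpin1*, a phosphatidate phosphatase, was at 38.4 and 24.0 rpbp at ZT6 and 95.8 and 161 rpbp at ZT10 (log2 difference 2.00, adjusted p = 0.0527). *Usp2*, a ubiquitin protease, was at 13.8 and 18 and then 29.2 and 31.0 rpbp (log2 difference 0.89, adjusted p = 0.194). *Alas1*, the first enzyme of heme synthesis, was at 126 and 469 and then 867 and 815 rpbp, so that by ratio its ZT6 samples lay further from each other than the higher of them lay from ZT10 (log2 difference 1.79, adjusted p = 0.37).

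Targets of the glucocorticoid receptor lay mostly higher at ZT10. Of 16 genes tested, 2 were called higher and 0 lower, where 0.167% and 0.157% of all genes tested were. As rises 6 met the rule and as falls 0 (0.922% and 0.804% of all genes), and 10 did not overlap with ZT10 higher and 1 with ZT10 lower (17.9% and 25.5%). The median log2 difference was 0.95 over both series, 0.41 in series 1 and 0.80 in series 2, and it was 0.42 without the series 2 sample of ZT10. *Tsc22d3*, which encodes the leucine zipper GILZ (chrX:137074067-137135198), was at 66.8 and 54.0 rpbp at ZT6 and 164 and 143 rpbp at ZT10, and rose 2.54-fold (log2 difference 1.34, SE 0.166, adjusted p = 0.0179). The entry *Tilz3b* lies at the same locus, and its 2.61-fold rise is the same signal. *Fkbp5*, a co-chaperone of the glucocorticoid receptor (chr17:28536040-28654469), was at 17.5 and 21.3 and then 55.5 and 42.2 rpbp, a 2.52-fold rise (log2 difference 1.28, SE 0.162, adjusted p = 0.0179).

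Of the other members of this list, *Zbtb16*, a zinc finger repressor, was at 2.16 and 1.08 rpbp at ZT6 and 8.96 and 18.4 rpbp at ZT10 (log2 difference 2.44, adjusted p = 0.0527). *Errfi1*, a feedback inhibitor of the EGF receptor, was at 283 and 524 and then 1066 and 1122 rpbp (log2 difference 1.502, adjusted p = 0.089). For both genes the groups were separate without passing the test. The metallothionein genes *Mt1* and *Mt2*, also targets of metals, had log2 differences of −0.57 and −0.999 (adjusted p = 0.867 and 0.801), with the lower ZT10 value in series 2. The receptor itself, *Nr3c1*, was at 63.2 and 64.1 and then 78.1 and 65.5 rpbp (log2 difference 0.17, adjusted p = 0.538). Outside this list, the mineralocorticoid receptor gene *Nr3c2* met the 1.5-fold rule as lower at ZT10, and was named after its values were seen. It was at 14.7 and 15 and then 8.92 and 9.20 rpbp (log2 difference −0.66, adjusted p = 0.0549).

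The largest rise by log2(rpbp + 1), among called members with a mean of at least 16 rpbp at ZT10, was that of *Serpina4-ps1*, annotated as a serpin pseudogene (chr12:105318859-105324934). It was at 13.1 and 14.8 rpbp at ZT6 and 153 and 122 rpbp at ZT10, 9.86-fold higher in the mean (log2 difference 3.20, SE 0.254, adjusted p = 0.00284). ZT6 was its lowest time, and ZT2, at 327 and 412 rpbp, its highest. Serpin genes form a family of closely related copies, and only sequences with a unique place were counted, so that this value is uncertain. *BC019819*, a transcript entry that the study's gene table places at chr11:5906290-5908331 (mm9), within *Camk2b*, went from 241 and 209 to 1019 and 911 rpbp (log2 difference 2.10, SE 0.224, adjusted p = 0.0101). *Camk2b* itself was at 5.48 and 5.32 and then 8.64 and 8.04 rpbp (log2 difference 0.54, adjusted p = 0.272).

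A cytokine receptor and an enzyme of membrane lipids were among the other rises. *Il6ra*, the ligand-binding chain of the interleukin-6 receptor (chr3:89673246-89717084), was at 20.7 and 16.6 rpbp at ZT6 and 41.8 and 34.4 rpbp at ZT10 (log2 difference 0.99, SE 0.124, adjusted p = 0.0179). *St3gal5*, the synthase of ganglioside GM3 (chr6:72047607-72104564), was at 98.3 and 77.3 and then 182 and 217 rpbp (log2 difference 1.18, SE 0.186, adjusted p = 0.042).

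*Ccdc21* (*Cep85*), a centrosomal protein gene (chr4:133685773-133743027), was at 48.4 and 41.1 and then 119 and 96.9 rpbp (log2 difference 1.249, SE 0.174, adjusted p = 0.0246). *Slc45a3*, a solute carrier gene (chr1:133867186-133879540), was at 17.4 and 13.1 and then 28.0 and 38.1 rpbp (log2 difference 1.06, SE 0.16, adjusted p = 0.0325). As members, these genes have groups that do not overlap by the rule itself. *Trp53inp2*, which acts in autophagy (chr2:155206795-155215586), was at 123 and 110.2 and then 213 and 252 rpbp (log2 difference 0.99, SE 0.163, adjusted p = 0.0479). *Ablim3*, an actin-binding LIM protein gene, had the lowest levels of these, 8.20 and 7.64 and then 16.5 and 15.7 rpbp (log2 difference 0.94, SE 0.124, adjusted p = 0.0209). Its mean at ZT10 just passed the 16 rpbp set for naming a gene. The remaining genes called higher were *Fmo5*, *Rnf144b*, *Fgf1*, *Lonrf3* and the chaperone gene *Hsp110* (*Hsph1*), with log2 differences from 0.64 to 1.09.

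**Figure D3:**
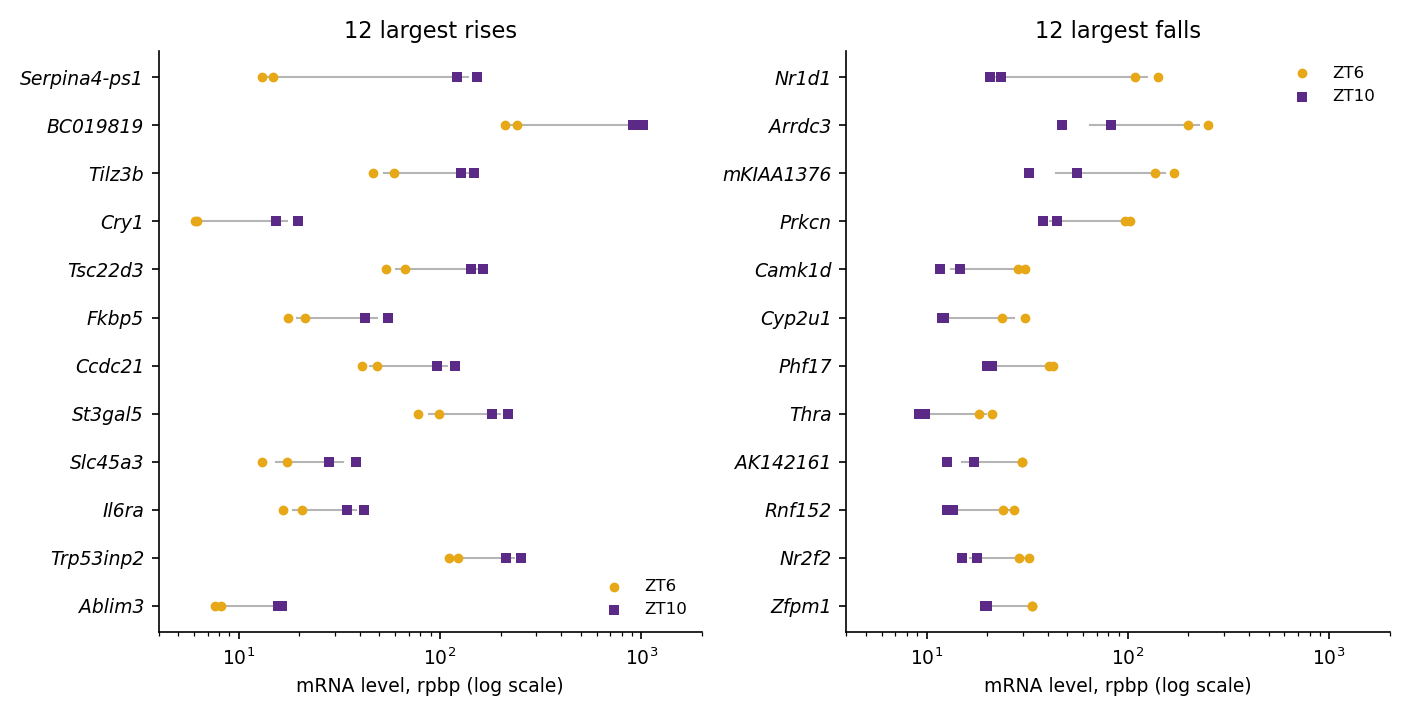
Level in rpbp (log axis) of the 12 largest rises and the 12 largest falls among called members with a mean of at least 16 rpbp at the higher time, with the 2 ZT6 samples as orange circles and the 2 ZT10 samples as purple squares. The grey line joins the means, and the values of the 2 times are separate in all 24 rows because the 1.5-fold rule chose them so.

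Among called members with a mean of at least 16 rpbp at the higher time, the largest fall after *Nr1d1*, by log2(rpbp + 1), was that of *Arrdc3*, an arrestin-domain gene that acts on adrenergic receptor signalling (chr13:81022645-81035296). It was at 250.2 and 199 rpbp at ZT6 and 82.9 and 47.3 rpbp at ZT10, 3.45-fold lower in the mean (log2 difference −1.82, SE 0.302, adjusted p = 0.0479). The entry *mKIAA1376* is the same gene. *Prkcn* (*Prkd3*, protein kinase D3; chr17:79348745-79420156) was at 103 and 96.5 and then 37.8 and 44.2 rpbp (log2 difference −1.26, SE 0.169, adjusted p = 0.0216). *Camk1d*, a calcium/calmodulin-dependent kinase gene (chr2:5214503-5635561), was at 30.7 and 28.5 and then 14.7 and 11.7 rpbp (log2 difference −1.11, SE 0.146, adjusted p = 0.0209).

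*Phf17* (*Jade1*, a subunit of a histone acetyltransferase complex; chr3:41359656-41420784) was at 42.3 and 40.6 rpbp at ZT6 and 21.2 and 19.9 rpbp at ZT10, with little spread within either time (log2 difference −0.98, SE 0.0966, adjusted p = 0.00679). *Nr2f2*, the orphan receptor COUP-TFII (chr7:77496832-77511621), was at 28.7 and 32.1 and then 17.8 and 15 rpbp (log2 difference −0.85, SE 0.117, adjusted p = 0.0224). *Zfpm1*, a cofactor of GATA factors (chr8:124806039-124861146), was at 33.5 and 33.3 and then 19.5 and 20.0 rpbp (log2 difference −0.73, SE 0.121, adjusted p = 0.0479).

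*Thra*, the thyroid hormone receptor α gene (chr11:98601952-98630320), was at 21.1 and 18.2 and then 9.88 and 9.16 rpbp (log2 difference −0.97, SE 0.133, adjusted p = 0.0224). *Thra* and *Nr1d1* lie on opposite strands and share 1075 bases (chr11:98629246-98630320), and the counting took no account of strand, so that *Nr1d1* sequences in that stretch also enter *Thra*. How much of the fall of *Thra* they make up was not tested. Of the 33 called genes, at least 14 entries overlap another gene of the annotation, *Arrdc3* and *mKIAA1376* being the same gene. Entries with no place of their own in the annotation, *BC019819* among them, were left out of this count. *Cyp2u1*, a fatty acid hydroxylase (chr3:130993409-131006145), was at 30.7 and 23.6 and then 12.3 and 12.0 rpbp (log2 difference −1.09, SE 0.159, adjusted p = 0.0295), and *Rnf152*, a ubiquitin ligase gene (chr1:107173494-107253287), at 27.2 and 24.1 and then 12.6 and 13.5 rpbp (log2 difference −0.92, SE 0.113, adjusted p = 0.0179). *AK142161*, *AK214641*, *Prss8*, *Tuba4a* and *Tnpo2* completed the genes called lower, with log2 differences from −1.64 to −0.55.

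Members that limma did not call also included receptors, named here after their values were seen. *Tfrc*, the transferrin receptor, was at 15.1 and 24.5 rpbp at ZT6 and 48.1 and 50.8 rpbp at ZT10 (log2 difference 1.31, adjusted p = 0.0823). *Esr1*, the estrogen receptor α gene, was at 7.84 and 6.92 and then 14.6 and 17.8 rpbp (log2 difference 1.04, adjusted p = 0.0923). On the lower side, *Klb*, the co-receptor for FGF21, was at 38.1 and 39.2 and then 21.6 and 24.6 rpbp (log2 difference −0.72, adjusted p = 0.0989). *Agtr1a*, the angiotensin II receptor, was likewise lower in both ZT10 samples, at 91.0 and 82.4 and then 52.3 and 42.7 rpbp (log2 difference −0.86, adjusted p = 0.0746).

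Among regulators and enzymes that were members without a call, *Onecut1*, the liver transcription factor HNF6, was at 4.24 and 14.9 rpbp at ZT6 and 48.4 and 32.1 rpbp at ZT10 (log2 difference 2.15, adjusted p = 0.0858). *Nnmt*, the nicotinamide N-methyltransferase, was at 90.7 and 95.3 and then 249 and 227 rpbp (log2 difference 1.34, adjusted p = 0.27). The 2 kinase genes *Pim3* and *Pim1* lay on opposite sides, with log2 differences of 0.80 and −0.997 (adjusted p = 0.0823 and 0.155). *Rgs16*, a regulator of G protein signalling, was at 105 and 132 and then 37.2 and 54.4 rpbp (log2 difference −1.37, adjusted p = 0.444). *Cyp2c39* was a member through 1 ZT10 sample for the most part, at 6.44 and 7.0 and then 93.8 and 11.9 rpbp (log2 difference 2.18, adjusted p = 0.6). *Atp6v0c*, a subunit of the vacuolar proton pump, was at 6.80 and 5.64 and then 70.2 and 33.5 rpbp (log2 difference 2.78, adjusted p = 0.0582).

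The member with the widest gap of all was not called. *Gja10*, a connexin gene, was at 16.6 and 19.0 rpbp at ZT6 and 0.28 and 0.24 rpbp at ZT10 (log2 difference −3.90, adjusted p = 0.107), and was named after its values were seen. Its samples at ZT18 were at 20.8 and 0.56 rpbp, as far apart from each other as ZT6 from ZT10. At the limit of the rule, *Ccrn4l* (*Noct*) lay just inside among the rises at the 1.5-fold limit itself, from 6.48 and 10.9 to 16.9 and 20.9 rpbp. *D4Bwg0951e* lay just outside with 1.4977, from 53.7 and 59.3 to 89.3 and 89.8 rpbp. Among the falls, *Cebpe* lay just inside with 1.5032 and *Zfp385* just outside with 1.4966.

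Genes of gluconeogenesis and amino acid catabolism lay higher at ZT10 in part, without passing the test. Of 23 genes of gluconeogenesis and amino acid catabolism, 10 did not overlap with ZT10 higher and 3 with ZT10 lower (17.9% and 25.5% of all genes tested). Limma called 0 (7 higher and 1 lower at an unadjusted p below 0.05, against 477 and 735 of the 10198 genes tested). The median log2 difference was 0.18 (0.12 without the series 1 sample of ZT10). *Pck1*, the PEP carboxykinase of gluconeogenesis and a glucocorticoid target, was at 478 and 407 rpbp at ZT6 and 782 and 1184 rpbp at ZT10 (log2 difference 1.12, adjusted p = 0.0918). *G6pc*, the glucose 6-phosphatase that releases glucose, was at 280.5 and 259.8 and then 470.3 and 545 rpbp (log2 difference 0.91, adjusted p = 0.14). *Hpd* and *Tdo2*, of the same list, had log2 differences of 0.11 and −0.16 (adjusted p = 0.776 and 0.575).

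Among glycogen genes, 2 targeting subunits of protein phosphatase 1 lay on opposite sides. *Ppp1r3b* was at 261 and 240.2 rpbp at ZT6 and 482 and 516 rpbp at ZT10 (log2 difference 0.99, adjusted p = 0.059). *Ppp1r3c* was at 133 and 106 and then 47.6 and 67.6 rpbp (log2 difference −1.05, adjusted p = 0.107). Neither passed the test, and 0 of the 12 genes of the list were called (1 higher and 1 lower at an unadjusted p below 0.05). In insulin and IGF signalling, 0 of 16 genes were called (4 and 2 at an unadjusted p below 0.05), and the median log2 difference was 0.079, with genes between −1.32 and 1.38. In this list 5 genes did not overlap with ZT10 higher and 5 with ZT10 lower (17.9% and 25.5% of all genes tested). As rises 0 met the 1.5-fold rule and as falls 3 (0.922% and 0.804% of all genes). The insulin receptor substrate gene *Irs1* was at 11.0 and 9.72 rpbp at ZT6 and 5.88 and 5.32 rpbp at ZT10 (log2 difference −0.78, adjusted p = 0.0793). The related *Irs2* was at 5.76 and 4.36 and then 1.76 and 2.44 rpbp (log2 difference −0.97, adjusted p = 0.448). *Trib3*, a pseudokinase that binds AKT, was at 12.2 and 10.8 and then 3.16 and 5.04 rpbp (log2 difference −1.32, adjusted p = 0.25).

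Cholesterol genes lay lower at ZT10 and fatty acid genes split by sample. Of 24 genes of cholesterol synthesis and uptake, 17 did not overlap with ZT10 lower and 0 with ZT10 higher, where 25.5% and 17.9% of all genes did. Their median log2 difference was −0.36. Limma called 0 (0 higher and 5 lower at an unadjusted p below 0.05), and 1 met the rule. *Insig1*, which holds the SREBP pathway back when sterols are plentiful, was at 701 and 529 rpbp at ZT6 and 349 and 429 rpbp at ZT10 (log2 difference −0.65, adjusted p = 0.284).

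In fatty acid synthesis, the ZT10 samples differed from each other. Of 19 genes, 12 were at least 1.5-fold higher in series 2 than in series 1 at ZT10 and 0 the reverse, against 0 and 1 at ZT6. The median log2 difference from ZT6 to ZT10 was −0.73 in series 1 and 0.47 in series 2. *Scd1*, the stearoyl-CoA desaturase, was at 27154 and 18548 rpbp at ZT6 and 8948 and 23462 rpbp at ZT10 (log2 difference −0.63, adjusted p = 0.653). *Fasn*, the fatty acid synthase, was at 414 and 281 and then 138 and 462 rpbp (log2 difference −0.43, adjusted p = 0.797). *Thrsp*, a regulator of lipogenesis, was higher at ZT10 in both, at 1954 and 2012 and then 4137 and 6239.7 rpbp (log2 difference 1.36, adjusted p = 0.171). Limma called 0 of the 19 genes (2 higher and 0 lower at an unadjusted p below 0.05).

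The same samples split the targets of PPARα and fat oxidation, with 10 of 27 genes at least 1.5-fold higher in series 2 at ZT10 and 0 the reverse. *Cyp4a14*, a fatty acid ω-hydroxylase, was at 1430.2 and 1322 rpbp at ZT6 and 249 and 1058 rpbp at ZT10 (log2 difference −1.42, adjusted p = 0.582). Only *Angptl4*, an inhibitor of lipoprotein lipase, met the 1.5-fold rule in this list, at 69.5 and 54.1 and then 107 and 129 rpbp (log2 difference 0.92, adjusted p = 0.0551). Limma called 0 (1 higher and 0 lower at an unadjusted p below 0.05). In bile acid synthesis, *Cyp7a1*, the rate-limiting enzyme, was at 62.6 and 63.9 and then 203 and 81.4 rpbp (log2 difference 1.01, adjusted p = 0.31), and 0 of 17 genes were called (1 and 2). Erythroid markers were also highest in the series 2 sample of ZT10, at a sum of 861 rpbp, and their part in the split between the ZT10 samples was not tested.

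In heme and drug metabolism, 1 of 31 genes was called, where 0.324% of all genes tested were. *Fmo5*, a flavin-containing monooxygenase (chr3:97432727-97459205), was at 799.8 and 818 rpbp at ZT6 and 1278 and 1236 rpbp at ZT10 (log2 difference 0.64, SE 0.0934, adjusted p = 0.0299). *Por*, which passes electrons to the cytochromes P450, was at 251 and 326 and then 524 and 434 rpbp (log2 difference 0.74, adjusted p = 0.107), with no overlap. *Nr1i2*, the xenobiotic receptor PXR, was at 69.8 and 74.2 and then 97.2 and 112 rpbp (log2 difference 0.53, adjusted p = 0.0549). Among acute phase and interleukin-6 response genes, 1 of 22, *Il6ra*, was called (0.324% of all genes tested). *Cebpd* was also a member, at 2.84 and 1.72 and then 5.76 and 10.2 rpbp (log2 difference 1.43, adjusted p = 0.107).

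The remaining lists held few members, and limma called 0 of each. Of 20 genes of the unfolded protein response, 6 did not overlap with ZT10 higher and 4 with ZT10 lower, where 17.9% and 25.5% of all genes tested did so (0 and 2 had an unadjusted p below 0.05), and *Trib3* was the 1 member. Of 15 NRF2 and antioxidant genes, 2 and 8 did not overlap, against the same shares of all genes, at a median log2 difference of −0.14 (1 and 2 at an unadjusted p below 0.05). *Gpx1*, a glutathione peroxidase gene, was at 3322 and 3925 rpbp at ZT6 and 4668 and 4539 rpbp at ZT10 (log2 difference 0.35, adjusted p = 0.224). *Cat*, the catalase gene, was at 4008 and 3888 and then 3468 and 3698 rpbp (log2 difference −0.14, adjusted p = 0.671). For 15 genes of glucose uptake and glycolysis the median was 0.019 with 1 member (2 and 0), and for 17 interferon-stimulated genes it was −0.064 with 0 members (0 and 1).

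Immediate early genes did not share a direction. *Junb*, an AP-1 subunit, was at 40.5 and 49.8 rpbp at ZT6 and 9.76 and 15.3 rpbp at ZT10 (log2 difference −1.79, adjusted p = 0.0805). *Myc* was at 1.44 and 3.96 and then 9.16 and 14.5 rpbp (log2 difference 1.85, adjusted p = 0.0582). *Dusp1*, a MAP kinase phosphatase, was at 25.2 and 77.3 and then 78.9 and 93.1 rpbp, with the series 1 sample of ZT6 apart from the other 3 values. Limma called 0 of 11 (2 higher and 1 lower at an unadjusted p below 0.05).

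The 30 respiratory chain and ATP synthase genes tested had log2 differences between −0.25 and 0.18 with a median of 0.039, and 0 were called by limma or had an unadjusted p below 0.05. The 31 proteasome subunits lay between −0.39 and 0.20 with a median of −0.025 (0 called, 1 higher and 4 lower at an unadjusted p below 0.05). Of 22 ribosome biogenesis genes, 10 did not overlap with ZT10 higher and 4 with ZT10 lower (17.9% and 25.5% of all genes tested). Of the 22, 0 were called (6 higher and 1 lower at an unadjusted p below 0.05, against 477 and 735 of the 10198 genes tested). Their log2 differences lay between −0.61 and 0.59 with a median of 0.15. Without the series 1 sample of ZT6 that median was 0.055. The 15 heat shock chaperones had a median of 0.21, or 0.098 without the series 1 sample of ZT6 (0 called, 3 and 1), and *Hspa8*, the constitutive Hsp70, was at 552 and 704 and then 969 and 1084 rpbp (log2 difference 0.72, adjusted p = 0.143). *Hsp110* (*Hsph1*), which recharges Hsp70 and stands outside that list, was called, at 10.7 and 13.3 and then 22.6 and 20.7 rpbp (log2 difference 0.81, SE 0.122, adjusted p = 0.0332). The plot by gene list shows the glucocorticoid targets and direct clock outputs at the high end, followed by the 7 tested cell cycle and growth arrest genes at a median of 0.47. In that list 0 were called (3 higher and 1 lower at an unadjusted p below 0.05), and its median was 0.024 without the series 2 sample of ZT10.

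**Figure D4:**
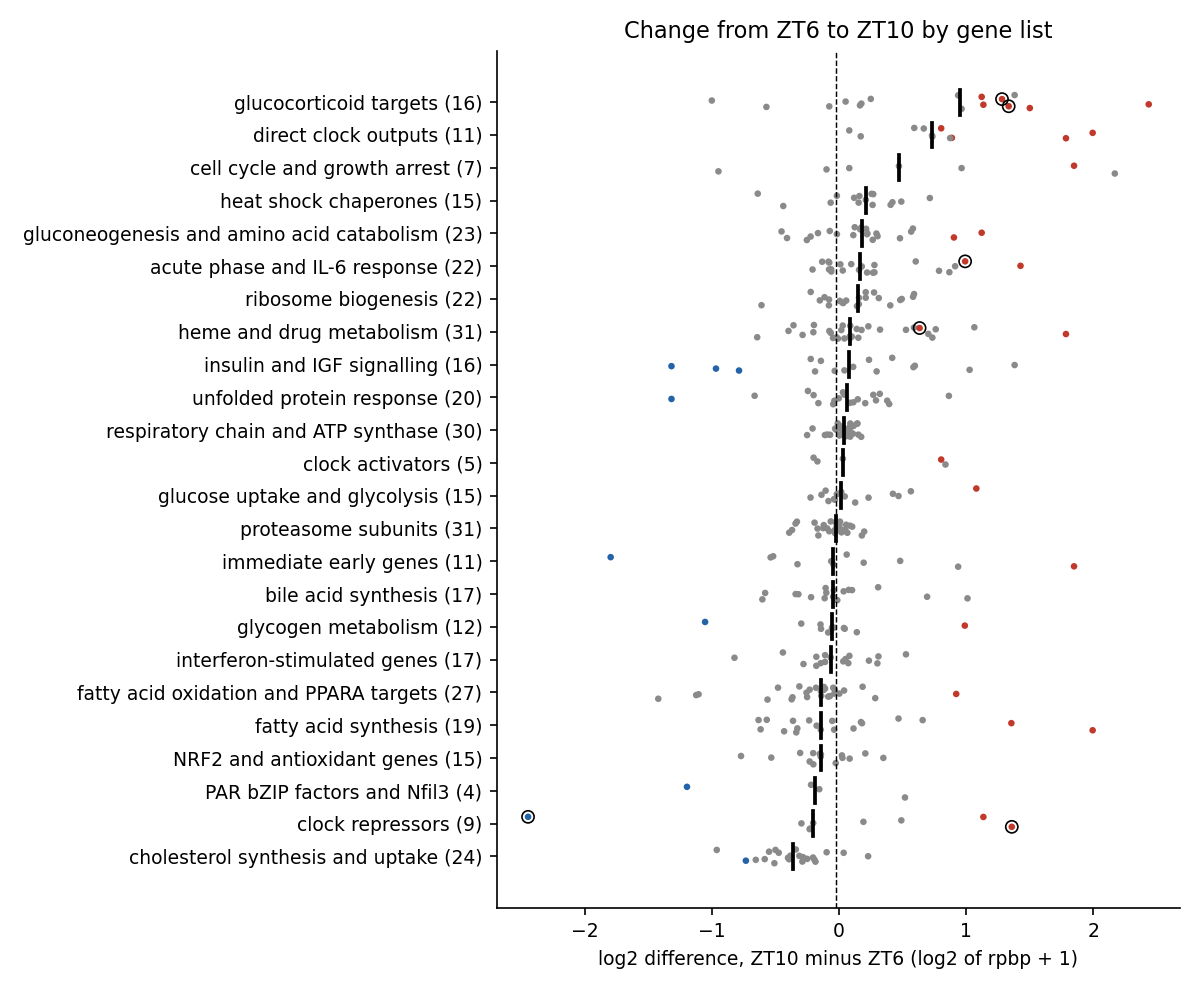
Log2 difference from ZT6 to ZT10 (horizontal) of each tested gene of 24 pathway lists, sorted by median, with the number of genes tested in brackets and vertical jitter. Black bars are list medians and the dashed line is the median over all genes tested (−0.023), red and blue points are members of the 1.5-fold rule, rings are limma calls, and the glucocorticoid targets have the largest median (0.95) and the cholesterol genes the lowest (−0.36).

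The samples carried the markers of liver at like levels at both times. Summed hepatocyte markers were between 149990 and 173570 rpbp in the 4 samples, *Alb* alone being at 105770 and 109300 and then 111790 and 97579 rpbp. Kupffer cell markers were between 565 and 822 rpbp, the highest sum being that of the series 2 sample at ZT6, where 4 of 11 were at least 1.5-fold above series 1. Interferon-stimulated genes were higher in the same sample, in 8 of 17, and 7 of 17 were higher in series 1 at ZT10. Of 12 endothelial markers, 6 did not overlap with ZT10 lower, where 25.5% of all genes tested did, at a median log2 difference of −0.16. Erythroid markers summed to 861 rpbp in the series 2 sample at ZT10 and to at most 368 in the other 3. Of 9 pericentral markers 0 and 2 did not overlap with ZT10 higher and lower, and of 10 periportal markers 3 and 1 (17.9% and 25.5% of all genes), with *Pck1* the 1 member. Stellate cell and fibroblast markers summed to 394 to 419 rpbp, cholangiocyte markers to 79.9 to 87.8 and neutrophil markers to 4.20 to 11.3. Lymphocyte markers summed to at most 16.9 rpbp and pancreatic markers to at most 0.12. Limma called 0 of the markers tested, with at most 2 of a list at an unadjusted p below 0.05. No lymphocyte or pancreatic marker reached the expression minimum, so these were not tested. In such bulk tissue, fewer cells of a type and less RNA per cell cannot be told apart.

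The step was compared with the one 12 hr later, from ZT18 to ZT22, in 4 other samples. The columns used for ZT22 are named ZT20 in the table, no sample is labelled ZT20, and the study's supplements use both names. If these samples were of ZT20, the night step would span 2 hr and not 4 hr. Limma called 3 genes higher and 10 lower at ZT22 (13 genes, 0.127%). The day and night steps differed at an adjusted p below 0.05 in 70 genes (0.686%), with 46 differences positive and 24 negative, and in 69 of the 70 the 2 steps had opposite signs. Of the 33 genes called by day, 22 were among them. Both tests use the same ZT6 and ZT10 values, so part of that overlap is built in. Choosing genes by a large difference between the steps also favours opposite signs, as does a daily rhythm read 12 hr apart. The share of opposite signs over all genes tested was not counted. With 1 sample left out, the 70 genes became 4 without series 1 of ZT6, ZT10 or ZT18, 5 without series 2 of ZT22, 12 without series 2 of ZT6, and 35 to 73 otherwise. The log2 difference of *Nr1d1* was −2.44 by day and its night step 1.43 (difference −3.88, SE 0.315, adjusted p = 0.00356). For *Cry1* the night step was −0.66 (difference 2.02, adjusted p = 0.0191). *Arrdc3* and *Prkcn* had night steps of −0.49 and −0.57, below 0 as by day, and their 2 steps were not called different (adjusted p = 0.239 and 0.272).

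**Figure D5:**
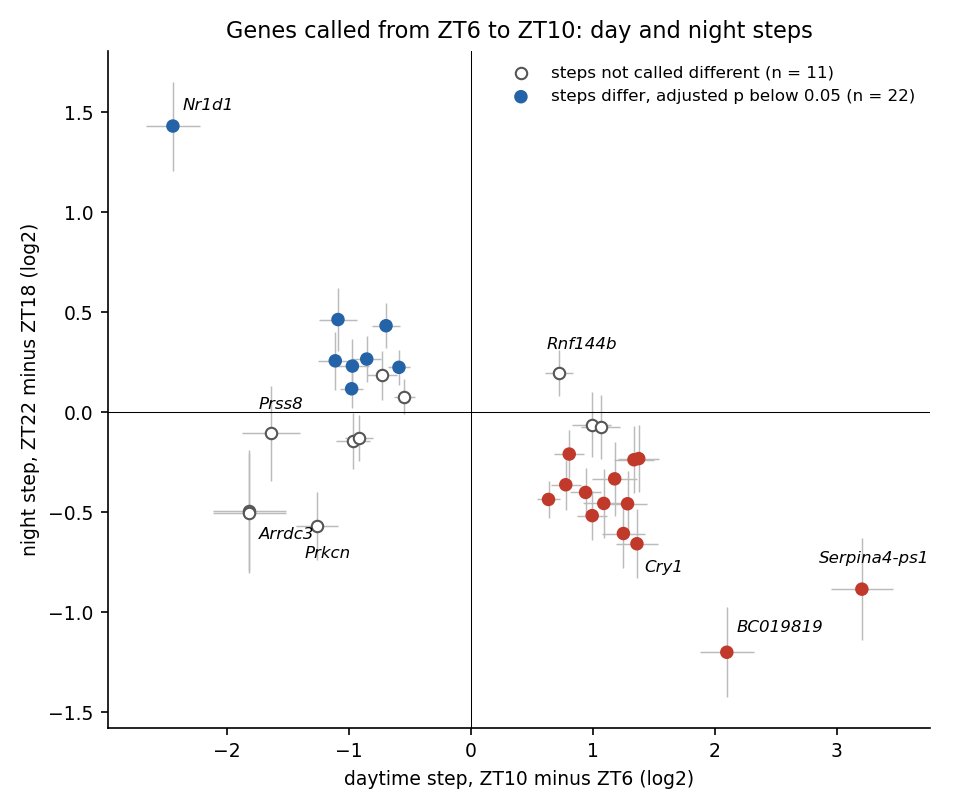
Night step, ZT22 minus ZT18 (vertical), against daytime step, ZT10 minus ZT6 (horizontal), both as log2 differences with SE bars, for the 33 genes called by day. Filled points (red higher and blue lower by day) are the 22 genes whose steps differed at an adjusted p below 0.05. By night, 16 of the 17 genes higher by day lie below 0, and 10 of the 16 lower by day lie above 0. The same shares over all genes tested were not counted. *Tsc22d3* and *Tilz3b* share a locus, as do *Arrdc3* and *mKIAA1376*.

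Over the 6 times, the daytime members were placed around this step. Of the 94 rises, 54 had their lowest mean at ZT6 and 24 at ZT2, and the highest mean was at ZT10 for 37, at ZT14 for 27 and at ZT2 for 14. Of the 82 falls, 53 had their highest mean at ZT6 and 37 their lowest at ZT10. The members' own rule fixes part of this, since a rise cannot be highest at ZT6. For scale, limma called 2014 genes between ZT2 and ZT6, 33 between ZT6 and ZT10, 91 between ZT10 and ZT14, 51 between ZT14 and ZT18, 13 between ZT18 and ZT22 and 254 between ZT22 and ZT2. Neighbouring steps share samples, and these counts were not tested against each other.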

How the data were processed

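Poly(A) RNA of 12 mouse liver samples was sequenced by the authors (TruSeq libraries, HiSeq2000), who mapped the reads to mm9 with TopHat (CASAVA 1.8 per the submitters' processing notes) and kept unique places. The deposited signal is base coverage over the flattened exons of all isoforms, without strand, per exon length, which the authors scaled to 10000000 sequences. It was multiplied by 4 here. Coverage is not a count, so no counting interval is given. Depth per sample is not in the file. Values summed to 1527338 to 1542078 rpbp in the 4 samples, and 8762 to 9001 genes exceeded 8 rpbp. The authors' deposited score, phase and p-value of a 24 hr rhythm were not used. The columns named ZT20 were taken as ZT22.

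Limma 3.58.1 (R 4.3.3, lmFit and eBayes with a trend) was fitted to log2(rpbp + 1) of 12 samples in 6 groups, with Benjamini-Hochberg adjustment over 10198 genes. Fold changes on that scale understate low genes. The (ZT10 − ZT6) − (ZT22 − ZT18) difference was a contrast of the same fit. With 2 against 2 samples, an exact permutation test cannot go below p = 0.333, so none was used. P-values measure the spread between these samples, of which the labels do not say whether they are single animals. The fit was tested on simulated data.

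Members and gene lists (24 pathways, 11 cell types) were chosen with earlier results of these data known. Named genes were the 12 largest rises and falls among called members with a mean of at least 16 rpbp at the higher time, all clock and PAR bZIP genes, up to 4 called genes of each other list or else its 2 with the highest mean, and 2 genes on each side of the 1.5-fold limit. List members that met the 1.5-fold rule, and some others, were named in addition, after their values were seen. A few genes that the rule names are not reported here. Positions are from GENCODE (NCBIM37, the build mm9), with 8678 of 10198 genes at 1 place. Promoters are RefSeq's (GRCm38.p6). Alternatives were other pseudocounts, expression minimums, scaling by the median of ratios, no trend, a replicate block, the 4 samples alone and each sample left out. Python 3.11.15, pandas 2.3.3 and matplotlib 3.10.9 were used.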

Additional observations from a re-analysis of the deposited data

Results flagged for a closer look

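The daytime step (ZT10 minus ZT6) and the night step (ZT22 minus ZT18) of 22 genes that the naming rule picked differed by limma at an adjusted p below 0.05. The values are log2 differences of the day step minus the night step. The naming rule picked most of these genes by their called daytime step, which is part of the difference tested. The difference is therefore not separate support for that step. A daily rhythm read 12 hr apart also takes opposite steps. Lower by day than by night were *Nr1d1* (−3.88), *Cyp2u1* (−1.55), *Camk1d* (−1.37), *Thra* (−1.20), *Nr2f2* (−1.12) and *Phf17* (−1.10). Higher by day were *Serpina4-ps1* (4.09), *BC019819* (3.30), *Cry1* (2.02), *Ccdc21* (1.86), *Fkbp5* (1.74), *Ppp1r3b* (1.62), *Tilz3b* (1.61), *Tsc22d3* (1.57), *Wee1* (1.54), *Il6ra* (1.51), *St3gal5* (1.51), *Per2* (1.35), *Ablim3* (1.34), *Tef* (1.11), *Fmo5* (1.07) and *Inmt* (1.06). *Tilz3b* and *Tsc22d3* are 1 locus, and *Thra* shares exon sequence with *Nr1d1*. For *Tef*, *Wee1* and *Inmt* the day step was close to 0 (−0.15, 0.082 and 0.17), and the night step was larger (−1.27, −1.46 and −0.89).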

How the results depend on the processing

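Counts are given as higher and lower at ZT10. Against 17 and 16 in the reported fit, limma called 2 and 2 with no expression minimum (20042 genes tested), 2 and 1 with only the 4 samples of ZT6 and ZT10, 11 and 10 with the replicate block, and 30 and 14 with the median of ratios. A minimum of 16 rpbp gave 22 and 20, no trend 13 and 11, and pseudocounts of 0.1 and 4 rpbp 25 and 17 and 22 and 22. Leaving out 1 sample gave 0 to 20 higher and 0 to 18 lower, with 0 and 0 without the series 1 sample of either time. Without the columns named ZT20, an alternative added after the data were seen, the counts were 22 and 16. The genes whose day and night steps differed numbered 70, but 34 without the trend, 9 with no minimum, 38 with the replicate block and 4 to 73 without 1 sample (4 without ZT6, ZT10 or ZT18 series 1, 5 without ZT22 series 2). Of the 1.5-fold members, 94 higher and 82 lower, a gap of 25% in place of 50% left 257 and 314 and a gap of 2-fold 28 and 18. The lower ones numbered 52 at a minimum of 16 rpbp, 149 with no minimum and 51 with a pseudocount of 4 rpbp. With 1 value in place of 2 at one time, the rule admitted 149 to 276 higher and 172 to 395 lower genes, which its own construction brings about. The reported fit did not pair samples by replicate number. Deviations of same-numbered samples correlated between −0.15 and 0.21 over the 15 pairs of times, and at −0.069 between ZT6 and ZT10. Low correlations across genes do not show that the samples are unpaired.

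Named genes changed sign in some of the fits without 1 sample, and the log2 differences over those fits ran as follows: *Atp5a1* (−0.00012 to 0.077), *Bhlhb2* (−0.50 to 0.045), *Clock* (−0.034 to 0.097), *Igfbp2* (−0.77 to 0.33), *Igtp* (−0.76 to 0.41), *Iigp1* (−0.24 to 0.39), *Ldha* (−0.43 to 0.15), *Npas2* (−0.36 to 0.025), *Pygl* (−0.11 to 0.20), *Scd1* (−1.33 to 0.064), *Scp2* (−0.036 to 0.11) and *Wee1* (−0.037 to 0.20), none of them called. Of the other values of named genes, 895 kept their side of the threshold, 146 lost it and 6 gained it, and 391 of 428 list medians moved by less than the spread between replicates. The causes were not tested. Coverage without read counts sets no counting limit, and low genes such as *Npas2* cannot be ranked here.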
